A study of Mus musculus with 8 samples.

Results

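The cleavage stimulation factor CstF, cleavage factor II, the canonical poly(A) polymerases and the nuclear poly(A)-binding protein Pabpn1 were followed in round spermatids, the haploid germ cells that precede nuclear condensation. The set holds 10 genes: Cstf1, Cstf2, Cstf2t, Cstf3, Clp1, Pcf11, Papola, Papolb, Papolg and Pabpn1. All probe sets that the platform annotation gives to exactly 1 of these genes were taken, which gave 26 of the 45037 probe sets tested, or 10 of 18193 genes. Pools of cells from 7 adult mice per array, 2 to 4 months old, of strain 129 Sv/Ev, were measured on Affymetrix expression arrays. The mutant group (4 arrays) was BrdtΔBD1 mutant: the germ cell bromodomain protein Brdt, which binds acetylated histones, is made without the first bromodomain. The control group (4 arrays) is labelled only as control. The labels name no zygosity and no further allele or agent. The comparison asks which transcripts differ in these cells when that domain is missing.

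The 3′ end of a messenger RNA is made by cutting the transcript and adding a poly(A) tail. CstF binds the GU-rich element after the cut site: Cstf2 or its paralog Cstf2t makes the RNA contact, Cstf3 is the scaffold and Cstf1 supports the assembly. Clp1 and Pcf11 form cleavage factor II, in which Pcf11 also binds the RNA polymerase II tail. Papola and Papolg are nuclear poly(A) polymerases, and Papolb is a testis-specific cytoplasmic poly(A) polymerase of spermatids that is needed for sperm formation. Pabpn1 coats the growing tail, makes the polymerase processive and takes part in the choice of poly(A) site. Cstf2 lies on the X chromosome, which is silenced in male meiosis, and Cstf2t, on chromosome 19, is expressed through meiosis and in spermatids and is needed for male fertility.

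RefSeq promoters (GRCm38.p6) are printed for the genes on which the results turn: Papolg and Pabpn1, each with 1 probe set that rose in the fit with the replicate block described below, and Papolb, the spermatid paralog of Papolg, for comparison. Each runs 5′ to 3′ on the gene's strand, from 250 bases before to 50 bases after the RefSeq start, and capitals mark any match on either strand to the cyclic AMP response element CRE (TGACGTCA), the ETS motif (CCGGAAG), the GC box (GGGCGG), the CCAAT box, searched as the letters in its name, or the TATA box (TATAAA). Papolg lies on the minus strand at chr11:23895221-23895520, Papolb on the minus strand at chr5:142530027-142530326 and Pabpn1 on the plus strand at chr14:54893893-54894192.
Papolg: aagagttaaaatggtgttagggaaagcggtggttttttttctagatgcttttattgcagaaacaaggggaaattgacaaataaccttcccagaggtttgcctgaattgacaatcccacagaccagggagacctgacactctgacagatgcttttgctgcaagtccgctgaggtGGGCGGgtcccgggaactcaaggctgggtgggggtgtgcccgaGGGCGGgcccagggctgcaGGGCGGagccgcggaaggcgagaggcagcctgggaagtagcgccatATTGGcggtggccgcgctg
Papolb: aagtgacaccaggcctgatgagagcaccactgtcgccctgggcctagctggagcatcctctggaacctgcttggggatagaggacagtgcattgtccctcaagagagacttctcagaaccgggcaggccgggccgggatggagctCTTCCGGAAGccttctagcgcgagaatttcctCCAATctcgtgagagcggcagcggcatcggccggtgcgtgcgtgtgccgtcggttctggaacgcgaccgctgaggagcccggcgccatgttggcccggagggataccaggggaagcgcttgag
Pabpn1: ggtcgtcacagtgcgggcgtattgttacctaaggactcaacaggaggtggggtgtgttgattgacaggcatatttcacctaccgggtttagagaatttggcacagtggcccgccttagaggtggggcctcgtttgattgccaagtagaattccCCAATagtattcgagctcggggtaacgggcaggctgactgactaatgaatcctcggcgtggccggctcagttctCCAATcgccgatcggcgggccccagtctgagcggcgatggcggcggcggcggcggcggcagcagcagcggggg
The Papolg window holds 3 GC boxes and 1 CCAAT box, the Papolb window 1 CCAAT box and a palindrome that matches the ETS motif on both strands, and the Pabpn1 window 2 CCAAT boxes. GC boxes occur in 35.7%, CCAAT boxes in 37.4% and ETS motifs in 8.86% of the 32851 RefSeq promoters of this length. CRE (1.79% of promoters) and TATA box (13.6%) letters occur in 0 of the 10 member promoters. CpG dinucleotides number 14 in the Papolg window, the fewest of the 10 member promoters, against 23 for Papolb, 25 for Pabpn1 and a median of 7 over all promoters. These matches describe the windows and are not evidence of binding.

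The arrays differed in RNA quality and in signal from other testis cells. Control arrays 1 and 3 had 3′ minus 5′ differences of the Gapdh control probe sets of 1.68 and 2.05 (log2), against 0.33 to 0.94 on the other 6 arrays. The mean of 12 round spermatid markers lay between 13.66 and 13.98 on all arrays, with 0 passing the test (limma, per gene). The mean of 19 measured Sertoli cell markers, called the Sertoli score here, was 5.96 to 7.47 in mutant and 4.96 to 5.82 in control arrays. Of these 19 markers 18 were higher in mutant arrays and 5 rose, with a median difference of 1.54. Vim differed by 2.95 and Wt1 by 1.15. Gata4 (difference 0.39), Sox9, Amh and Fshr averaged below 4 in both groups, where differences are compressed. Spermatogonia markers had means of 4.92 to 5.43 in mutant and 4.25 to 4.57 in control arrays (10 of 10 higher, 1 rose), and spermatocyte markers 9.40 to 10.2 and 9.31 to 9.61. With the replicate number fitted as a block, 12 of 19 Sertoli, 3 of 10 spermatogonia and 3 of 15 spermatocyte markers rose, 1 spermatocyte marker fell, and 0 of 12 round spermatid markers passed (limma). A level in such pools cannot separate fewer cells of a type from less RNA per cell.

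**Figure D1:**
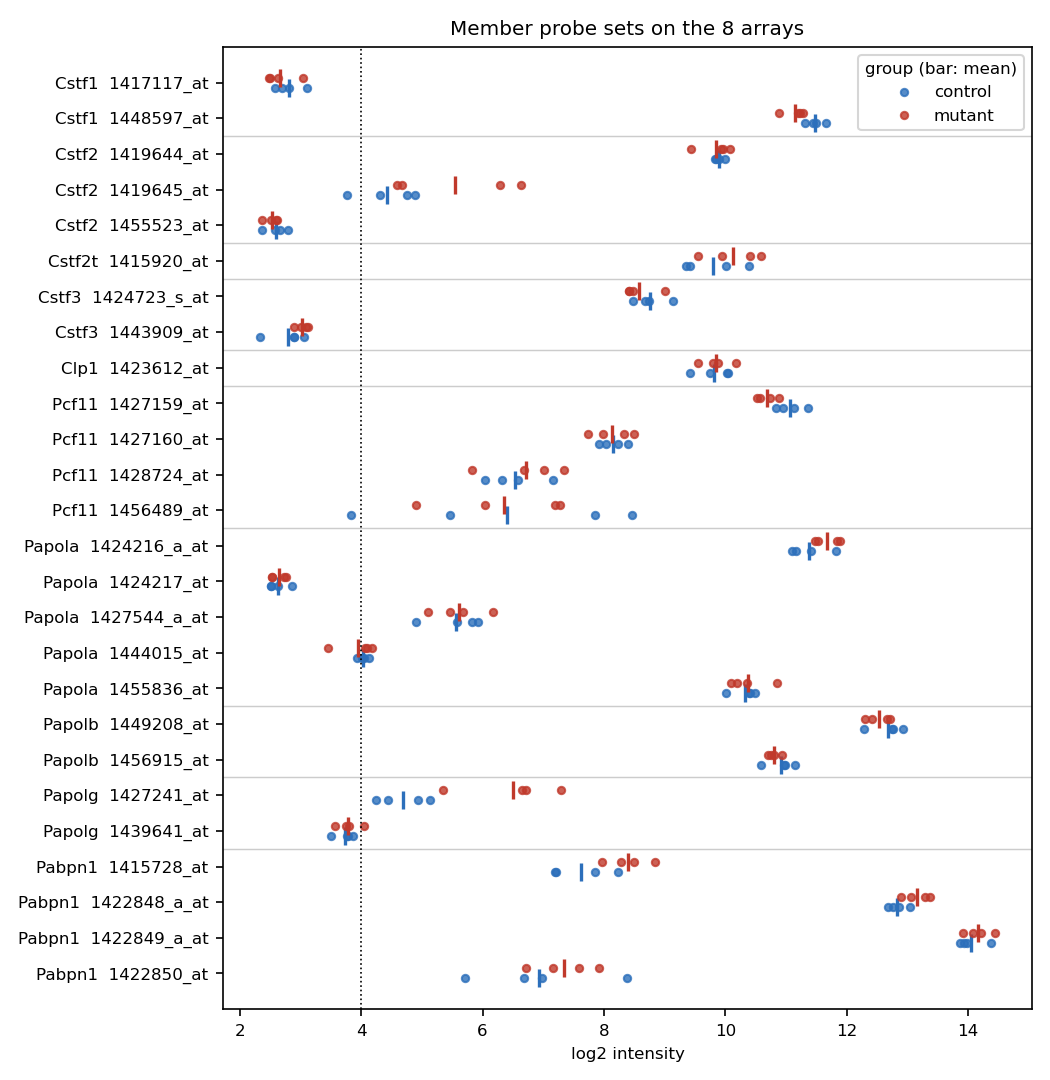
Log2 intensity of the 26 probe sets (rows, grouped by gene) on 4 mutant and 4 control arrays (points), with group means (vertical bars) and a dotted line at 4. The groups are apart for Papolg 1427241_at and Cstf1 1448597_at, and levels of different rows are not comparable.

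Values are log2 intensities, and a difference is mutant minus control. "Rose" and "fell" are kept for a Benjamini-Hochberg adjusted p under 0.05 (limma). The adjustment runs over all 45037 probe sets unless another set is named. For the cell markers and the other 3′ end genes it runs over 18193 genes. With group as the only term, 0 of the 26 probe sets rose and 0 fell, where 0.717% of all probe sets rose and 0.702% fell, and 5 of the 26 had an unadjusted p under 0.05, against 15.1% of all. Same-numbered mutant and control arrays varied together, so the replicate number was also fitted as a block: 2 then rose, Papolg 1427241_at and Pabpn1 1415728_at, and 0 fell, where 3.92% of all probe sets rose and 2.5% fell. Groups without overlap were seen in 2 of the 26, against 9.48% of all. How many of all probe sets differed in 1 direction in all 4 same-numbered pairs was not counted. The median difference was 0.04 over the 26 and -0.03 over all probe sets. A mean of at least 4 over the 8 arrays was reached by 20 of the 26. The other 6 averaged 2.56 to 3.99, near the floor that the normalization sets, where differences are compressed.

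**Figure D2:**
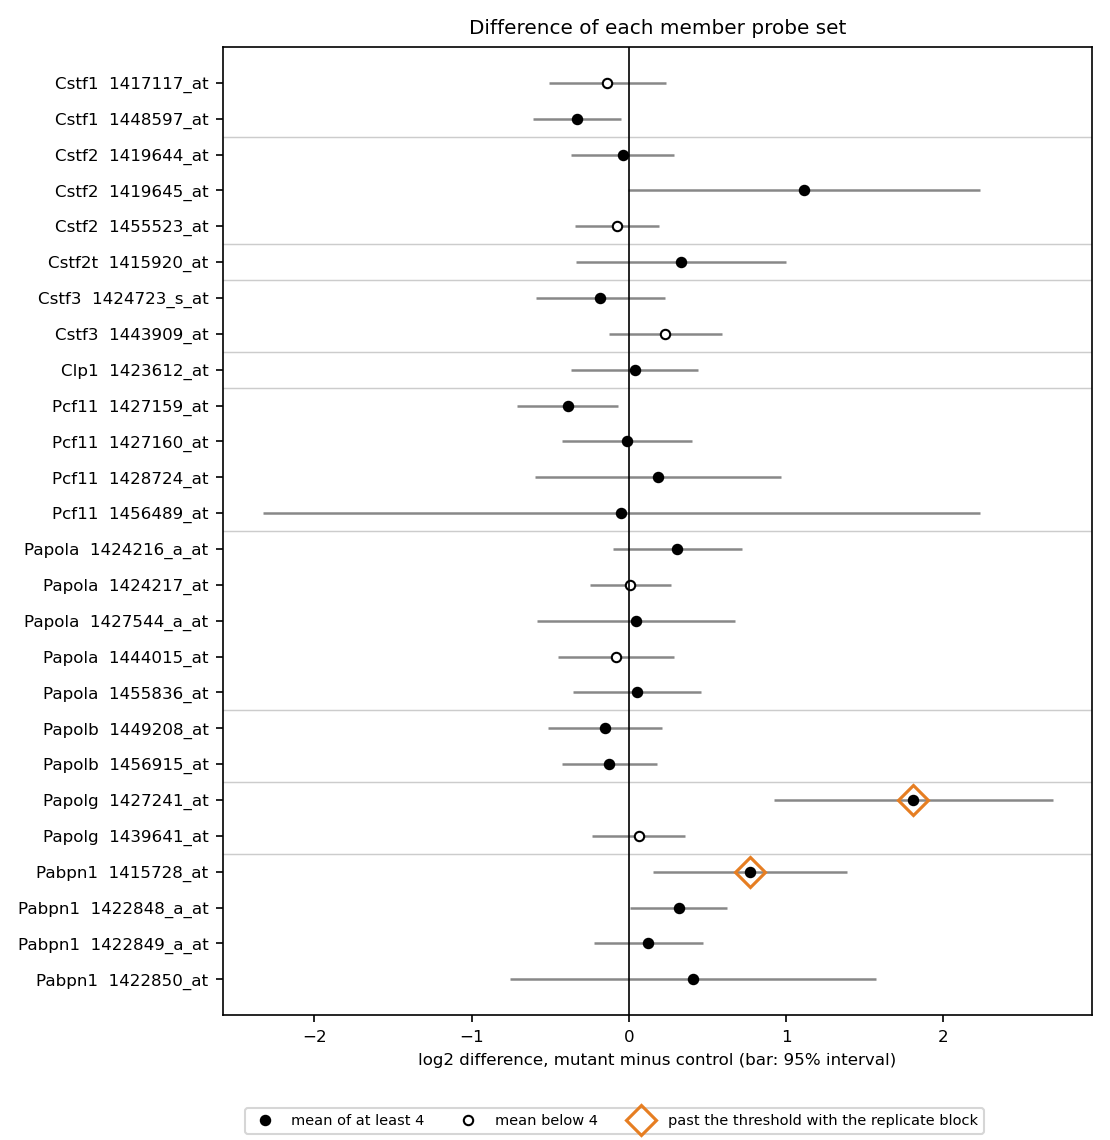
Log2 difference (mutant minus control) of each member probe set with its 95% interval from limma without a block. Open circles are probe sets with a mean below 4, and diamonds mark Papolg 1427241_at (1.81) and Pabpn1 1415728_at (0.77), which rose with the replicate block.

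Papolg was the member with the largest difference. Its probe set 1427241_at read 7.29, 6.71, 6.65 and 5.34 in the mutant (arrays 1 to 4) and 4.24, 4.94, 5.13 and 4.44 in the control (arrays 1 to 4). Every mutant array was above every control array, and mutant array 4 came closest. The means were 6.50 ± 0.82 and 4.69 ± 0.41 (SD, n = 4 each), a 3.51-fold higher level in mutant arrays with a 95% interval of 1.90 to 6.48. Its adjusted p was 0.065 in limma over all probe sets and 0.027 with the replicate block. With 1 probe set per gene it rose (limma, adjusted p = 0.042 over 18193 genes, 0.022 with the block), where 1.86% of genes rose and 6.6% with the block. It also rose with the mean of all probe sets of a gene (0.043, where 1.61% of genes rose), among probe sets averaging at least 4 (0.032, where 3.71% rose) and with an intensity trend and robust prior (0.036, where 1.11% rose). The mutant array was higher in all 4 pairs, by 3.05, 1.77, 1.52 and 0.90. Without mutant array 4 the difference was 2.20 (adjusted p = 0.015, limma). In the other 7 fits that leave out 1 array it was 1.55 to 1.96 and did not pass, with adjusted p of up to 0.17. With the block it passed without pair 1 (adjusted p = 0.025) or pair 4 (0.047) and not without pair 2 (0.055) or pair 3 (0.11). The other Papolg probe set, 1439641_at, was dim, at 3.79 ± 0.20 in mutant and 3.73 ± 0.15 in control arrays, and its difference was 0.06 (SE 0.13, adjusted p = 0.88). The Papolg result thus rests on 1 probe set.

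Beside this, mutant arrays had the higher Sertoli scores, without overlap between groups. With the score as a covariate the difference of Papolg 1427241_at was 1.71 (SE 0.76, adjusted p = 0.49, limma), and with score and block together 0.33 (SE 0.81, adjusted p = 0.95). The same fits called 2 and 0 of all 45037 probe sets, and both extrapolate, since the lowest mutant score lay above the highest control score. The scores were 7.17, 5.96, 7.47 and 7.07 on mutant arrays 1 to 4, where Papolg read 7.29, 6.71, 6.65 and 5.34, and 4.96, 5.15, 5.82 and 5.75 on control arrays 1 to 4, where it read 4.24, 4.94, 5.13 and 4.44. Spermatocyte marker means were 10.19, 9.94, 9.57 and 9.40 on mutant arrays 1 to 4, in the same order as Papolg. On control arrays 1 to 4 these means were 9.61, 9.50, 9.31 and 9.33, not in the order of Papolg. A link of Papolg to spermatocyte signal was not tested. Without control arrays 1 and 3 the Papolg difference was 1.81 (adjusted p = 0.27), in a fit that called 35 probe sets in all.

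**Figure D3:**
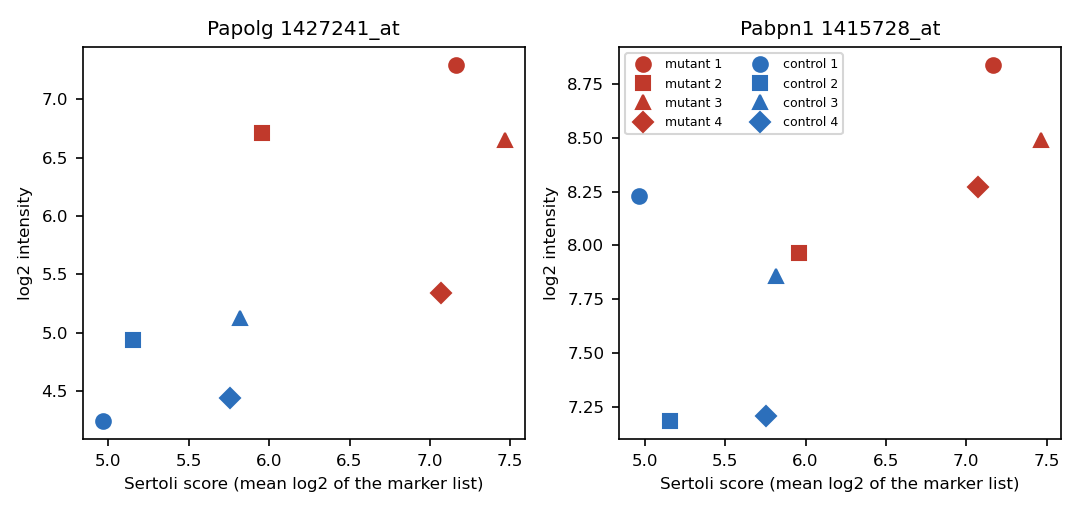
Papolg 1427241_at and Pabpn1 1415728_at (log2 intensity) against the Sertoli score of each array, with mutant arrays in red, control arrays in blue and a symbol per replicate number. Mutant scores run from 5.96 to 7.47 and control scores from 4.96 to 5.82, so the groups share no score.

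The testis poly(A) polymerase Papolb was bright in both groups. Its probe set 1449208_at read 12.72, 12.67, 12.31 and 12.42 on mutant arrays and 12.74, 12.92, 12.29 and 12.77 on control arrays. The groups overlapped. The difference was -0.15 (SE 0.16, adjusted p = 0.73), which as a ratio of mutant to control has a 95% interval of 0.70 to 1.16. Its other probe set, 1456915_at, differed by -0.12 (SE 0.13), with an interval of 0.74 to 1.13. Both intervals leave out a change as large as 1.5-fold in either direction, and with the replicate block the adjusted p was 0.49 and 0.59 (limma).

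Papola, the general nuclear polymerase, had 5 probe sets. Among them 1424216_a_at was the brightest. This probe set, whose suffix marks probes shared by transcripts of the same gene, read 11.84, 11.47, 11.52 and 11.88 in mutant and 11.09, 11.41, 11.16 and 11.82 in control arrays. Mutant was higher in all 4 pairs while the groups overlapped, and the difference was 0.31 (SE 0.18, adjusted p = 0.48; 0.28 with the block, limma). The next, 1455836_at, averaged 10.37 and 10.32, a difference of 0.05 (SE 0.18). Probe set 1427544_a_at differed by 0.05 (SE 0.28), and 1444015_at and 1424217_at, near the floor, by -0.08 and 0.0089.

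The RNA-binding CstF subunit and its paralog were read by 4 probe sets. Cstf2t 1415920_at read 10.41, 10.59, 9.94 and 9.55 in the mutant (arrays 1 to 4) and 10.39, 10.01, 9.41 and 9.35 in the control (arrays 1 to 4). Arrays 1 and 2 read higher than arrays 3 and 4 in both groups, and the mutant array was higher in all 4 pairs, by 0.02 to 0.58. The difference was 0.33 (SE 0.29, adjusted p = 0.67), and the block brought the SE to 0.13 with an adjusted p of 0.20 (limma). It was 0.17 without mutant array 2 and 0.53 without control array 1, the extremes over the fits that leave out 1 array. With the Sertoli score fitted it was 1.30 (SE 0.40, adjusted p = 0.26, limma). With score and block it was 0.82 (SE 0.35, adjusted p = 0.55, limma). Both fits with the score extrapolate, since the groups share no score. With group as the only term, a ratio between 0.79 and 2.00 lies within the 95% interval of Cstf2t 1415920_at. Cstf2 1419644_at averaged 9.85 ± 0.28 and 9.89 ± 0.08 (SD, n = 4), a difference of -0.04 (SE 0.14). Cstf2 1419645_at read 6.63, 4.67, 6.29 and 4.59 on mutant arrays and 4.31, 4.75, 4.89 and 3.77 on control arrays. Mutant arrays 1 and 3 stood above all others, and the remaining mutant arrays lay within the control range. Its difference of 1.12 (SE 0.49) did not pass (adjusted p = 0.33, and 0.13 with the block, limma). With the block and without pair 2 it was 1.51 and passed (adjusted p = 0.037), and with the block and the Sertoli score as a covariate it turned to -1.44 (adjusted p = 0.29). The last Cstf2 probe set, 1455523_at, lay near the floor at 2.52 and 2.60.

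Cstf1, the regulatory CstF subunit, was the other member whose groups did not overlap. Probe set 1448597_at read 10.88, 11.23, 11.20 and 11.28 in mutant and 11.67, 11.31, 11.49 and 11.44 in control arrays. Every mutant array was lower, yet the gap to the nearest control array was small, and the 1.26-fold lower mean (difference -0.33, SE 0.12) did not pass (adjusted p = 0.25, and 0.23 with the block, limma). Its probe set 1417117_at lay near the floor at 2.67 and 2.80. For the scaffold Cstf3, probe set 1424723_s_at, whose suffix marks probes that can match transcripts of several genes, averaged 8.58 ± 0.28 and 8.76 ± 0.27, a difference of -0.18 (SE 0.18). Cstf3 1443909_at lay near the floor, at 3.03 and 2.80.

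In cleavage factor II, Clp1 1423612_at averaged 9.84 ± 0.26 in mutant and 9.81 ± 0.29 in control arrays, a difference of 0.04 (SE 0.18), with a 95% interval of the ratio of 0.77 to 1.36. Pcf11 1427159_at read 10.89, 10.53, 10.57 and 10.74 on mutant arrays and 11.13, 11.36, 10.83 and 10.95 on control arrays. It was lower in the mutant array of all 4 pairs, by 0.22 to 0.84, and mutant array 1 reached into the control range. The difference of -0.39 (SE 0.14) did not pass (adjusted p = 0.23, and 0.16 with the block, limma). Pcf11 1427160_at differed by -0.01 (SE 0.18) and 1428724_at by 0.19 (SE 0.34). Pcf11 1456489_at had the widest spread of all members: it read 6.04, 7.19, 4.91 and 7.28 in the mutant (arrays 1 to 4) and 5.46, 7.86, 3.84 and 8.46 in the control (arrays 1 to 4). Arrays 2 and 4 were high and arrays 1 and 3 low in both groups. The group difference was -0.05 with an SE of 1.005, which the block brought to 0.37. Control arrays 1 and 3 are also those with the large Gapdh differences, and without them the group difference was -1.80 (SE 0.67, adjusted p = 0.38, limma). That fit kept the low mutant arrays 1 and 3, so it broke the pairs and set all mutant arrays against the high control arrays 2 and 4. Within pairs 2 and 4 the differences were -0.66 and -1.18.

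**Figure D4:**
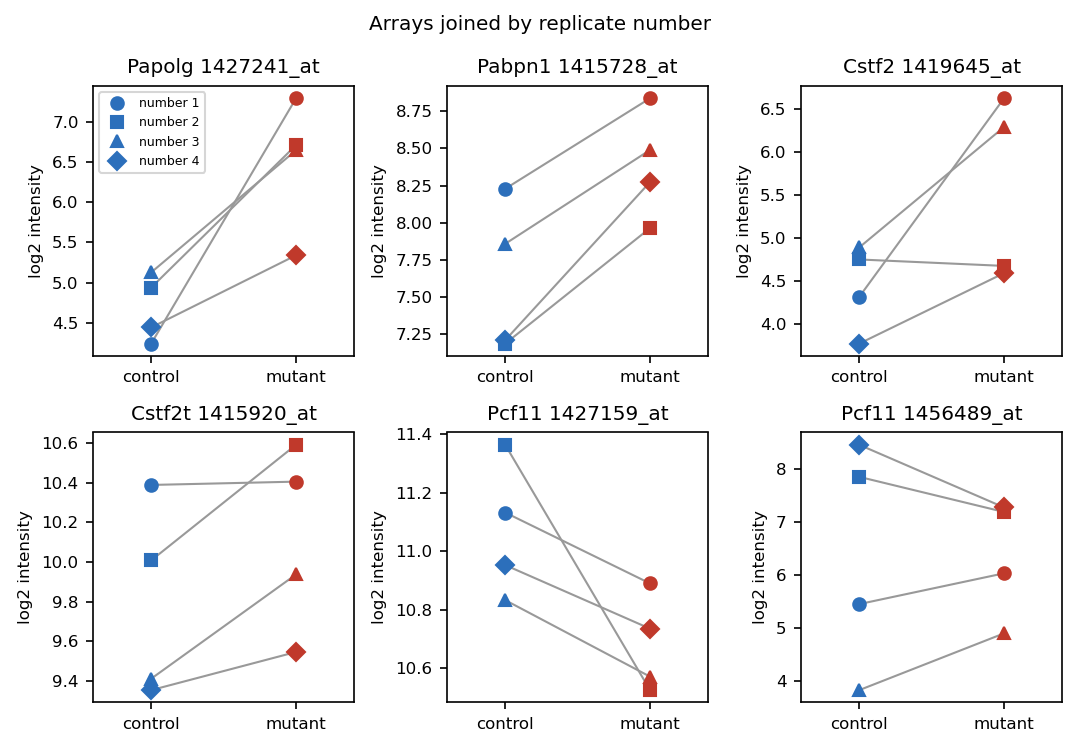
Log2 intensity of 6 member probe sets in control and mutant arrays, with lines joining arrays of the same replicate number. Papolg 1427241_at, Pabpn1 1415728_at and Cstf2t 1415920_at are higher and Pcf11 1427159_at is lower in all 4 pairs, and in Pcf11 1456489_at the numbers 2 and 4 are high in both groups.

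Pabpn1, the nuclear poly(A)-binding protein, had 4 probe sets, all with higher mutant than control means. Probe set 1415728_at read 8.84, 7.96, 8.49 and 8.27 in the mutant (arrays 1 to 4) and 8.23, 7.19, 7.86 and 7.21 in the control (arrays 1 to 4). The groups overlapped, and within pairs the mutant array was higher by 0.61, 0.78, 0.63 and 1.07. Its 1.71-fold higher level (difference 0.77, SE 0.27) missed the threshold without the block (adjusted p = 0.22) and passed with it (SE 0.11, adjusted p = 0.017, limma). It passed with the block when pair 1 (adjusted p = 0.035) or pair 2 (0.036) was left out and missed without pair 3 (0.081) or pair 4 (0.060). Without control arrays 1 and 3 the difference was 1.19 (adjusted p = 0.16). With the Sertoli score as a covariate it was 0.49 (SE 0.51), and 1.05 (SE 0.34, adjusted p = 0.44) with score and block. The brightest probe sets, 1422849_a_at and 1422848_a_at, differed by 0.12 (SE 0.15) and 0.32 (SE 0.14). Neither passed with the block (adjusted p = 0.55 and 0.12, limma). Probe set 1422850_at differed by 0.41 (SE 0.51) and had its highest value, 8.38, on control array 1. Leaving out 1 array moved this difference between 0.00032 (without control array 2) and 0.89 (without control array 1), and that of 1422849_a_at between 0.028 (without mutant array 1) and 0.23 (without control array 1). With 1 probe set per gene, the brightest, Pabpn1 did not pass with or without the block (adjusted p = 0.52 and 0.73).

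Probe sets of 1 gene can read different transcript ends, so their differences were compared within genes (limma diffSplice, an F test per gene, over probe sets that average 4 or more). Cstf2, Pcf11, Papola, Papolb and Pabpn1 could be tested, and 0 of these 5 passed, where 0.906% of 2870 genes did. None of the 5 passed with the block either, where 5.89% did. The smallest adjusted p was that of Cstf2, whose probe sets 1419645_at and 1419644_at differed by 1.16 in their change (adjusted p = 0.52, and 0.17 with the block, limma). The adjusted p of Pcf11, Papola, Papolb and Pabpn1 was 0.9999 in each case without the block and 0.39 to 0.98 with it. With dim probe sets let in, Papolg also had 2 testable probe sets, which differed by 1.75 in their change. The adjusted p was 0.034 in the limma F test, where 4.25% of 9010 genes passed, and 0.0503 in the limma test per probe set. Probe set 1439641_at averaged below 4, and whether the floor hid a change there was not tested.

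Around these members, 43 of 44 listed genes of 3′ end formation and poly(A) metabolism were measured, each by its brightest probe set. Of these 1 rose and 1 fell, and 8 rose and 3 fell with the block, where 1.86% of 18193 genes rose and 1.85% fell (6.6% and 4.94% with the block). The median difference was 0.03, against -0.02 over all genes. The list of 16 genes is headed by CPSF, which recognises the poly(A) signal and cuts the RNA, and by CFIm. It also holds associated factors: Sympk, Rbbp6 and the phosphatases Ssu72, Ppp1ca, Ppp1cb and Ppp1cc. Of these 16 genes 1 rose, Ppp1ca, a catalytic subunit of a general protein phosphatase with many other roles (difference 2.09, adjusted p = 0.015). With the block 4 rose, the phosphatases Ppp1ca, Ppp1cb and Ssu72 and the CFIm subunit Cpsf6, and 1 fell (Cpsf4l, at an adjusted p of 0.0498). Ppp1ca missed the threshold without mutant array 3 or control array 4 (adjusted p = 0.054 and 0.053), and its difference with the Sertoli score as a covariate was 1.09 (SE 0.48, adjusted p = 0.39, limma). Leaving out control arrays 1 and 3 together, Ppp1ca also missed it (adjusted p = 0.082). Among 10 non-canonical nucleotidyltransferases, enzymes that extend RNA 3′ ends outside the canonical machinery, 1 fell: Tent5b read 8.28, 8.69, 9.23 and 9.37 on mutant arrays and 10.27, 10.01, 10.27 and 10.53 on control arrays. Its groups did not overlap, and it was 2.60-fold lower in mutant arrays (adjusted p = 0.021, limma; 0.0096 with the block). It missed the threshold without control array 1, 3 or 4, with adjusted p of 0.062, 0.059 and 0.071, and its difference with the Sertoli score as a covariate was -1.74 (SE 0.44, adjusted p = 0.12). Leaving out control arrays 1 and 3 together, Tent5b had an adjusted p of 0.17 (limma). With the block Tut1 also fell (difference -1.18) and Tut4 rose (0.67). Of 5 genes of nuclear poly(A) binding and export and 12 of cytoplasmic poly(A) binding and polyadenylation, 0 rose and 0 fell. With the block Alyref (1.10), Cpeb1 (0.60) and Cpeb2 (1.19) rose. Cpeb1 was dim, at 4.02 in mutant and 3.43 in control arrays, close to the floor.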

How the data were processed

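Total RNA of 4 mutant and 4 control pools of round spermatids, separated on a gradient of bovine serum albumin per the labels' protocols, was measured on Affymetrix arrays. Each probe set has a deposited log2 intensity that the authors had normalized. GCRMA and limma are named in the submitters' processing notes; their versions and the steps they served are not stated there. Dim values are drawn towards a floor by GCRMA. Of 45101 probe sets 64 controls were left out. The platform annotation gives 34945 of the rest to 1 gene, with symbols updated by Entrez identifier. Sample titles gave the groups and replicate numbers, and per the design text 7 animals served each array.

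All probe sets were fitted with limma 3.58.1 in R 4.3.3 (group as the only term, tests of both directions, Benjamini-Hochberg adjustment). Deviations from the group means over 14359 probe sets correlated at 0.39 to 0.65 in the 4 same-numbered pairs, so the numbers pair the samples and blocked values are given. The pairing comes from the data and the shared numbers, not from a stated batch. Scripts were tested on simulated data. All members are named, and of the other lists up to 4 genes past the threshold each; Cpsf4l and the genes past it with the block were named after their values were seen. Members and lists were chosen with earlier results of these data known. The number of arrays limits the precision.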

Additional observations from a re-analysis of the deposited data

Results flagged for a closer look

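Among the 52 groups of 4 values (26 probe sets in 2 genotypes), 2 held a value whose gap to its nearest neighbour took up most of the group's range (Dixon's test at its 95% critical value). Chance flags about 1 in 20 groups. Both are values of mutant array 2: Cstf3 1424723_s_at read 8.998, against at most 8.49 on the other mutant arrays, and Papola 1444015_at, near the floor, read 3.45, against at least 4.06. Control array 2 was the highest control array for this Cstf3 probe set (9.13) and the lowest for this Papola probe set (3.93), and the differences within pair 2 were -0.13 and -0.48.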

How the results depend on the processing

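Of 540 alternative values of member probe sets, 465 kept their direction and their side of the threshold, 10 passed it in the same direction and 65 changed sign, none of which passed. The cause of these changes was not tested. The 540 include 26 values with the replicate block, 26 with the intensity trend and robust prior and 20 with a minimum mean of 4. Those fits leave the difference itself unchanged, so only the side of the threshold could move in them. Centring each array on its median, with 26 values, hardly moved the differences. Of the 540, 162 values kept their sign and differed by over 1.5 times in size, 106 of them among 312 from fits that leave out 1 array or pair, 15 without control arrays 1 and 3 and 13 with the Sertoli score. The array number and the normalization floor limit what can be seen. With the replicate block 2 member probe sets (2 genes) rose, and 8 of the other 3′ end genes rose and 3 fell, while 2894 probe sets in all were called, against 639 without it. Member probe sets risen numbered 1, Papolg 1427241_at, with a minimum mean of 4 (adjusted p = 0.032, where 924 of 14359 probe sets were called) or with an intensity trend and robust prior (0.036, 805 of 45037 called), and the member genes risen numbered 1 with the brightest probe set per gene, with or without the block, or the mean of all its probe sets. With no filter on dim probe sets 1 member gene, Papolg, had probe sets that differed in their change, among 383 of 9010 genes. Over the fits that leave out 1 array, or with the replicate block 1 pair (4 fits added after seeing the data), 0 to 2 member probe sets rose and 189 to 2785 probe sets were called. Leaving out single arrays gave 382, 1323 and 189 calls without mutant arrays 1, 2 and 3 and 246, 345, 264 and 217 without control arrays 1 to 4, and 0 to 3 of the other 3′ end genes rose and 0 to 2 fell. Array weights gave 1339 calls, quantile normalization again 993, leaving out control arrays 1 and 3 gave 35, the Sertoli score as a covariate 2, and score and block together, a fit added after seeing the data, 0. In the fits without control arrays 1 and 3 and with the score, 0 of the other 3′ end genes rose and 0 fell.

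Sign changes were as follows, in log2 differences. Without control arrays 1 and 3 they were 0.012 for Cstf2 1455523_at, -0.19 for Clp1 1423612_at and -0.070 for Papola 1455836_at. With the Sertoli score they were 0.038 for Cstf1 1417117_at, 0.12 for Cstf2 1455523_at, 0.42 for Cstf3 1424723_s_at, 0.26, -0.30 and 1.42 for Pcf11 1427160_at, 1428724_at and 1456489_at, -0.038 and -0.039 for Papola 1424217_at and 1455836_at, and 0.20 and 0.19 for Papolb 1449208_at and 1456915_at. With array weights they were 0.0020 for Cstf2 1419644_at, -0.077 for Clp1 1423612_at, 0.10 for Pcf11 1427160_at, and -0.013 and -0.023 for Papola 1427544_a_at and 1455836_at. With quantile normalization again they were -0.17 for Papola 1427544_a_at and -0.013 for Papolg 1439641_at. With score and replicate block they were 0.17 and 0.42 for Cstf1 1417117_at and 1448597_at, -1.44 and 0.16 for Cstf2 1419645_at and 1455523_at, 0.34 and -0.12 for Pcf11 1427160_at and 1428724_at, and -0.46, -0.96 and -0.86 for Papola 1424216_a_at, 1427544_a_at and 1455836_at. Leaving out 1 array or pair gave ranges across 0 of -0.30 to 0.027 for Cstf1 1417117_at, -0.11 to 0.099 for Cstf2 1419644_at, -0.093 to 0.14 for Clp1 1423612_at, -0.17 to 0.15, -0.021 to 0.48 and -0.90 to 0.64 for Pcf11 1427160_at, 1428724_at and 1456489_at, -0.034 to 0.086, -0.17 to 0.22, -0.16 to 0.087 and -0.10 to 0.20 for Papola 1424217_at, 1427544_a_at, 1444015_at and 1455836_at, and -0.10 to 0.18 for Papolg 1439641_at. Centring each array on its median changed no call of a member.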
